A study of Arabidopsis thaliana with 6 samples.

Results

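The genes described here encode the nuclear part of the photosynthetic apparatus of Arabidopsis thaliana: the antenna proteins LHCA1 to LHCA4 and LHCB1 to LHCB6, the small subunit of Rubisco (RBCS), and nuclear subunits of photosystem I (PSAD to PSAO) and photosystem II (PSBO to PSBY). They were chosen as a list of 43 named loci out of 33602 genes in the deposited gene table, without reference to their measured values in the rule itself. Earlier results of these data were known when the list was chosen. RNA had been extracted from whole 15-day-old plants grown at 22 °C under continuous white light, and polyadenylated RNA was sequenced. The groups were 3 libraries of Col-0 wild type and 3 libraries of a prmt5 mutant, both labelled as controls of the experiment; the labels do not say which prmt5 allele was used, whether plants were pooled within a library, or whether replicates were grown separately. P-values therefore measure the spread between these libraries, which may be technical.

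Photosystem II and photosystem I work in series in the thylakoid membrane: the first takes electrons from water, the second passes them to ferredoxin. Each core is made of chloroplast-encoded and nuclear-encoded subunits and is surrounded by nuclear-encoded chlorophyll-binding antenna proteins, the LHCB proteins around photosystem II and the LHCA proteins around photosystem I. Rubisco, which fixes carbon dioxide, combines a chloroplast-encoded large subunit with nuclear-encoded small subunits. PRMT5 is a methyltransferase that dimethylates arginines symmetrically, on histones and on proteins of the spliceosome among others, and plants without it are known for retained introns.

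Libraries held 29145068 to 59480457 gene counts, and exonic reads leaned to the 3′ end of genes by a median log2 ratio (3′ part over 5′ part, by density) of 1.67, 1.25 and 1.32 for wild type replicates 1, 2 and 3 and of 0.765, 0.835 and 1.31 for the mutant ones. The targeted gene PRMT5 (AT4G31120) was not lower in the libraries labelled prmt5 mutant: its log2 change was 0.81 ± 0.10 (SE, edgeR adjusted p = 0.00011). PRMT5 overlaps a neighbouring gene, and whether counting used strand is not stated, so this value is uncertain. An intron of PRMT5 at chr4:15132630-15132724 did separate the groups, with 15, 5 and 8 intronic reads for wild type and 196, 301 and 206 for the mutant. Over all genes, 34.5% of 21949 tested were called, meaning a quasi-likelihood p of edgeR that stayed below 0.05 after Benjamini-Hochberg adjustment, and 15.9% were called lower in the mutant; with upper-quartile scaling 36.6% were called and 22.4% were called lower.

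All 43 genes passed the expression filter, 38 of them were called lower in the mutant and 0 were called higher. Of all tested genes, 15.9% were called lower and 18.6% higher. The median log2 change of the 43 was -0.76, and that of all tested genes was -0.02. The log2 change was below 0 for each of the 43 in the main test and in all 14 other settings tried. In 40 of the 43, the groups did not overlap, with each wild-type library above each mutant library, a pattern found in 23.7% of all tested genes (24.6% had the reverse pattern). Together the 43 genes took 12.5%, 14.6% and 14.7% of the gene counts of the wild-type libraries, and 8.88%, 7.8% and 8.84% of those of the mutant libraries, by replicate number. Whole plants were sampled, so fewer green cells and less of these RNAs per cell cannot be told apart.

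The amount of the decrease differed between the role groups. The 7 LHCB1 and LHCB2 genes fell from 3.35% ± 0.282 to 1.63% ± 0.243 of the library (SD, n = 3 each), a ratio of 0.487, and the 6 genes LHCB3 to LHCB6 from 1.57% ± 0.29 to 0.79% ± 0.086, a ratio of 0.503. The 12 photosystem I subunit genes had a ratio of 0.567 and the 4 LHCA genes one of 0.623. The ratio was 0.721 for the 4 RBCS genes, 0.715 for the 6 extrinsic subunit genes of photosystem II and 0.713 for the other 4 photosystem II genes. The antenna of photosystem II therefore had the lowest ratios; differences between the role groups were not tested.

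**Figure D1:**
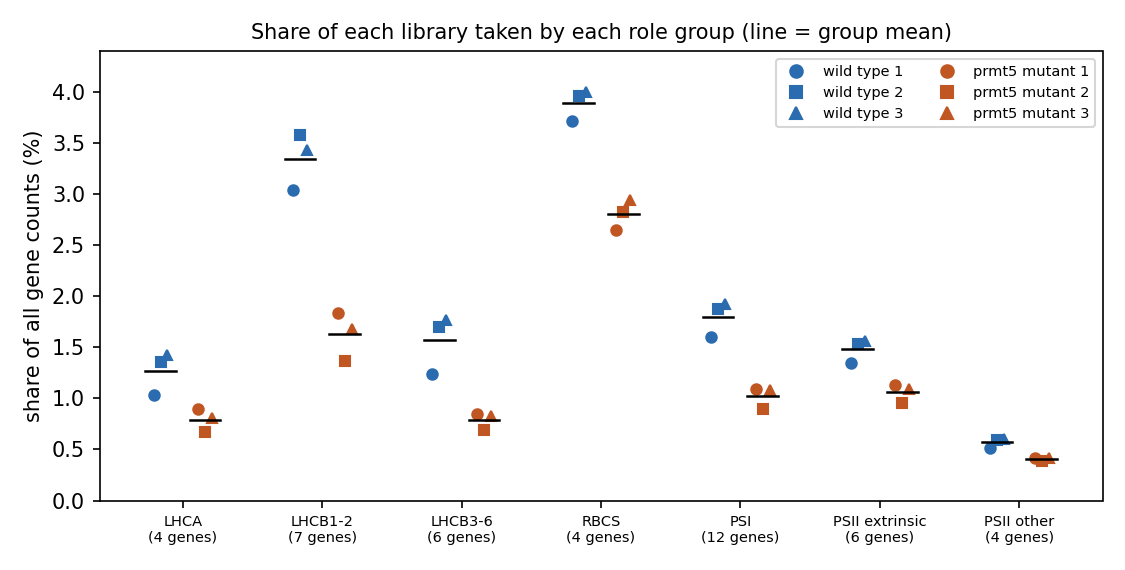
Share of all gene counts in percent (vertical axis) taken by each of the 7 role groups, 1 point per library, with a line at the mean of 3 libraries. In all 7 groups each mutant library lies below each wild-type library, and the RBCS genes take the largest share in the mutant, 2.81% on average.

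The fall was not of one size in all libraries. Wild type replicate 1 was the lowest wild-type library in 42 of the 43 genes (38.7% of all tested genes), and mutant replicate 2 the lowest mutant library in 36 of the 43 (32.4% of all tested genes). Over the 31 of these genes with exons in both parts, the median log2 ratio of 3′ to 5′ density was 0.91, 0.53 and 0.52 for wild type and 0.11, 0.33 and 0.58 for the mutant. With coverage along genes as a covariate, 32 of the 43 were called lower, against 7.59% of all tested genes, and the median was -0.92. The calls lost there were those of LHCB4.3 (edgeR adjusted p = 0.0568), RBCS1A (0.167), RBCS2B (0.148), PSAN (0.0563), PSAO (0.0679) and PSBO1 (0.0603). Between wild type replicates 2 and 3 and mutant replicate 3 alone, whose coverage is alike, the median was -0.89, against -0.01 over all genes. Calls with that lone mutant library assume that it varies as the wild-type libraries do.

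**Figure D2:**
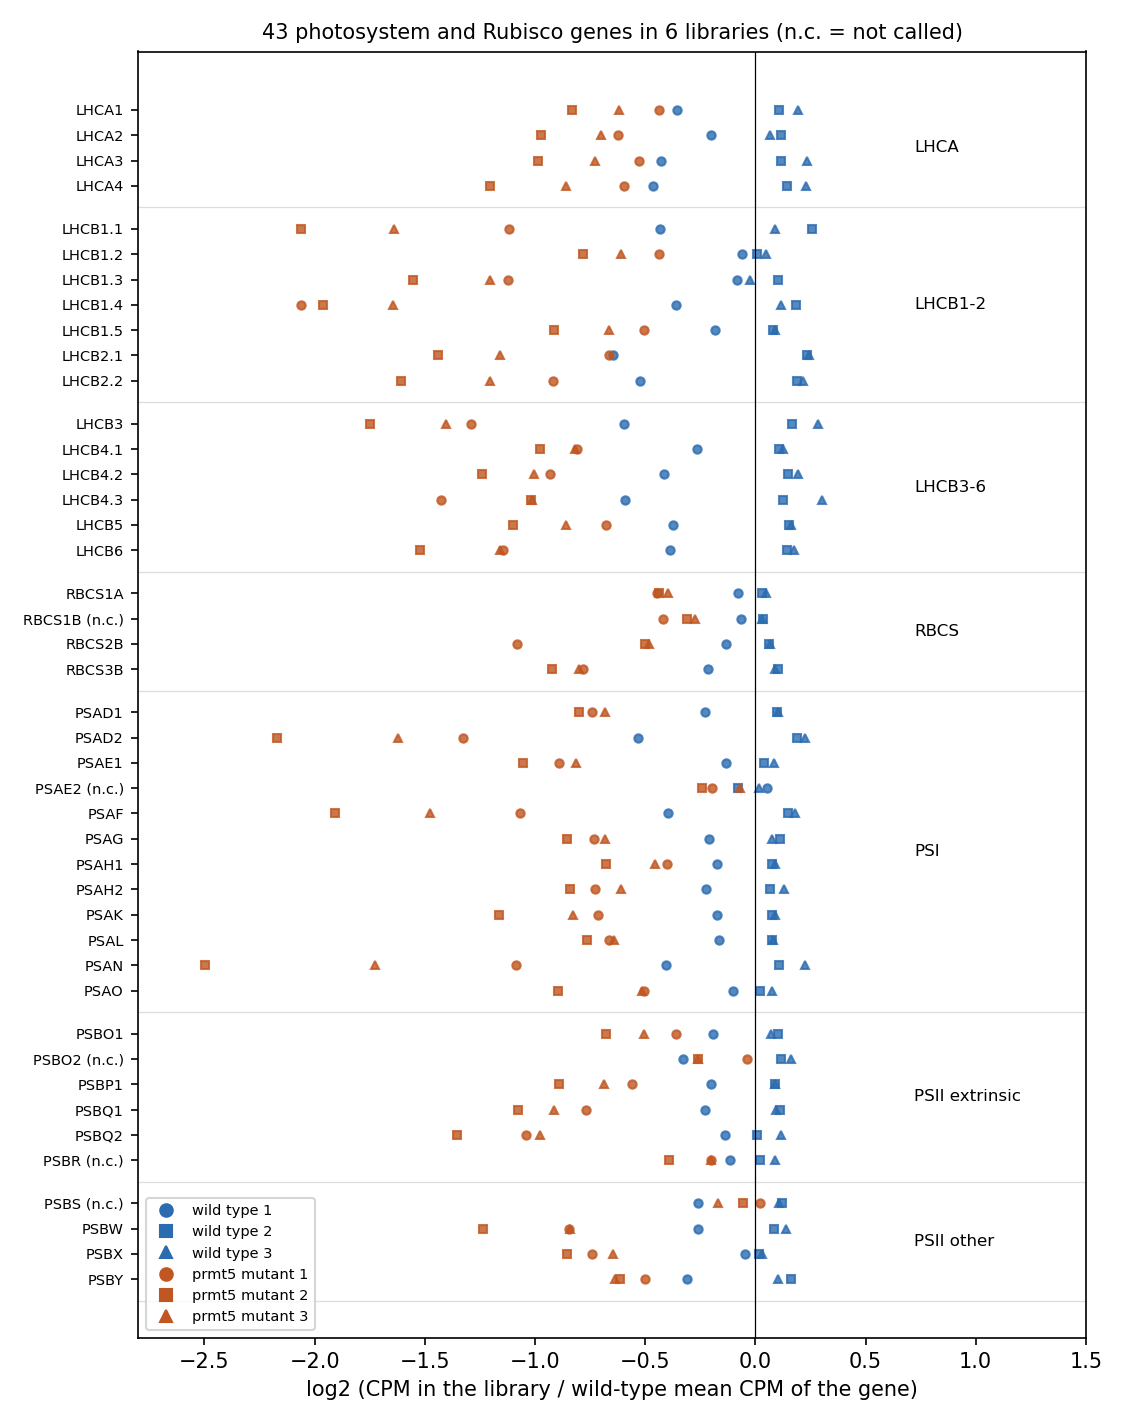
CPM of each of the 43 genes in each of the 6 libraries, as log2 of its ratio to the gene's wild-type mean (horizontal axis), with genes ordered by role. Mutant libraries lie to the left of all wild-type libraries in 40 genes; the 5 genes marked n.c. were not called.

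CPM stands for the gene count scaled by library size and TMM factor, and values are in the order of replicates 1, 2 and 3. The LHCA proteins form the antenna belt of photosystem I, and all 4 genes were called lower, with log2 changes from -0.62 to -0.87. LHCA4 (AT3G47470) had 3088, 4706 and 4996 CPM in wild type and 2817, 1849 and 2351 CPM in the mutant. LHCA2 (AT3G61470) had 2783, 3469 and 3354 CPM in wild type and 2076, 1633 and 1973 CPM in the mutant. Neither gene's groups overlapped, although mutant replicate 1 came close to wild type replicate 1 for LHCA4. Of the exonic 50-base stretches of LHCA2, 13.6% occur elsewhere in the genome. The log2 change was -0.87 ± 0.21 for LHCA4 (SE; edgeR adjusted p = 0.00891) and -0.76 ± 0.15 for LHCA2 (edgeR adjusted p = 0.00308). LHCA1 and LHCA3, at -0.62 and -0.73, were not called without wild type replicate 3 (edgeR adjusted p = 0.0884 and 0.0619) or without mutant replicate 2 (0.0893 and 0.0656), and LHCA1 also not without wild type replicate 2 (0.0588) or mutant replicate 3 (0.06).

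LHCB1 and LHCB2 proteins make up most of the trimeric antenna of photosystem II, which can move to photosystem I in state transitions. All 7 genes were called lower, with log2 changes from -0.60 for LHCB1.2 to -1.88 for LHCB1.4, the widest range of the antenna groups. LHCB1.4 (AT2G34430) had 1383, 2018 and 1920 CPM in wild type and 425, 456 and 568 CPM in the mutant. The lowest wild-type library was thus well above the highest mutant library, and the mutant level was 0.272 of the wild-type level (log2 change -1.88 ± 0.18 SE; edgeR adjusted p = 1.7e-05). LHCB1.3 (AT1G29930), the most abundant antenna gene of the list per kilobase of exon, had 14226, 16202 and 14824 CPM in wild type and 6937, 5139 and 6539 CPM in the mutant (log2 change -1.28 ± 0.17; edgeR adjusted p = 0.000199). LHCB1.1 fell by 1.55 on the log2 scale, from 4270 ± 994 to 1456 ± 479 CPM, while LHCB1.2, near it on chromosome 1, fell by 0.60. LHCB1.1 and LHCB1.2 share 95.6% of their coding bases and 23% and 12.9% of their exonic 50-base stretches occur elsewhere in the genome. That share was 20.2%, 18% and 17.3% for LHCB1.3, LHCB1.4 and LHCB1.5, and 30.7% and 31.9% for LHCB2.1 and LHCB2.2. Reads of all these genes could therefore be split between copies. LHCB2.1 had 1291, 2379 and 2396 CPM in wild type and 1274, 744 and 905 CPM in the mutant, and LHCB2.2 had 1057, 1731 and 1761 CPM against 803, 498 and 658 CPM. For LHCB2.1 the gap between wild type replicate 1 and mutant replicate 1 was small. The log2 change was -1.05 ± 0.27 for LHCB2.1 (edgeR adjusted p = 0.0183) and -1.22 ± 0.23 for LHCB2.2 (0.00293). LHCB2.1 was not called without wild type replicate 2 (edgeR adjusted p = 0.0625), wild type replicate 3 (0.0581), mutant replicate 2 (0.0537) or mutant replicate 3 (0.0557), and LHCB1.2 not without mutant replicate 2 (0.0509).

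LHCB3 is a further kind of subunit of the trimers, and LHCB4, LHCB5 and LHCB6 are the monomeric antenna proteins CP29, CP26 and CP24 that link trimers to the core. All 6 genes were called lower. LHCB6 (AT1G15820) had 2324, 3359 and 3439 CPM in wild type and 1376, 1058 and 1361 CPM in the mutant (log2 change -1.26 ± 0.18; edgeR adjusted p = 0.000339). LHCB3 (AT5G54270) had 2136, 3628 and 3930 CPM in wild type and 1321, 960 and 1220 CPM in the mutant (log2 change -1.47 ± 0.23; edgeR adjusted p = 0.000709). Both genes were lower in each mutant library than in any wild-type library. LHCB4.1 went from 2734, 3543 and 3593 CPM to 1879, 1669 and 1867 CPM, and LHCB4.2 from 1305, 1926 and 1989 CPM to 912, 736 and 867 CPM, with log2 changes of -0.87 ± 0.15 and -1.05 ± 0.17 (edgeR adjusted p = 0.00128 and 0.000869). LHCB5 fell by 0.87 and the much rarer LHCB4.3, at 120 ± 35.8 CPM in wild type, by 1.14 on the log2 scale. The sources used here do not say whether counting used strand, and LHCA4, LHCB1.5, LHCB3, LHCB4.2 and LHCB6 overlap a neighbouring gene, as do PSAE2, PSAH1 and PSBR, so their values are uncertain. The same holds for LHCA5, CRD1, CHLI2 and PYK10 among the genes of other lists named below.

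The 4 RBCS genes encode small subunits of Rubisco, and RBCS1A was the most abundant gene of the 43 per kilobase of exon in both groups, with 18018 and 13404 CPM per kilobase. Of the 4, 3 were called lower. RBCS3B (AT5G38410) had 9613, 11983 and 11891 CPM in wild type and 6482, 5890 and 6407 CPM in the mutant, a log2 change of -0.83 ± 0.16 (edgeR adjusted p = 0.002). RBCS2B had 4363, 4998 and 5012 CPM in wild type and 2266, 3384 and 3430 CPM in the mutant, where replicate 1 lay apart from the other mutant libraries (log2 change -0.66 ± 0.18; edgeR adjusted p = 0.0143). RBCS1A (AT1G67090) had 17461, 18868 and 19075 CPM against 13573, 13618 and 14025 CPM, a log2 change of -0.43 ± 0.15 (edgeR adjusted p = 0.0475). RBCS1B had 5287, 5676 and 5654 CPM against 4145, 4467 and 4585 CPM and was not called (log2 change -0.33 ± 0.14; edgeR adjusted p = 0.0851), although its groups did not overlap. RBCS1A lost its call without any library except wild type replicate 1, with edgeR adjusted p from 0.118 without mutant replicate 1 to 0.172 without wild type replicate 3; without wild type replicate 2, mutant replicate 2 and mutant replicate 3 it was 0.145, 0.144 and 0.128. RBCS2B lost its call without wild type replicate 3 (0.0587) or mutant replicate 1 (0.0506), while RBCS1B was called without wild type replicate 1 (0.0231). Without the filter on low counts RBCS1A was not called (0.0599), and RBCS1B was called with upper-quartile scaling (0.0277) and by DESeq2 (adjusted p = 0.00258). RBCS1B and RBCS2B share 97.3% of coding bases, and 31.9%, 18.6% and 23% of the exonic 50-base stretches of RBCS1B, RBCS2B and RBCS3B occur elsewhere in the genome, against 0% for RBCS1A.

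Of the 12 nuclear genes of photosystem I, 11 were called lower. PSAD and PSAE form the stromal docking site of ferredoxin, and each is encoded by a pair of genes. PSAD1 had 1631, 2043 and 2049 CPM in wild type and 1142, 1097 and 1188 CPM in the mutant, and PSAD2 had 575, 949 and 974 CPM against 332, 185 and 271 CPM. PSAD2 (AT1G03130) had the larger change, -1.67 ± 0.26 on the log2 scale (edgeR adjusted p = 0.00203), and PSAD1 had -0.74 ± 0.14 (0.00197). PSAE1 had 1450, 1634 and 1687 CPM in wild type and 857, 765 and 904 CPM in the mutant (log2 change -0.92 ± 0.13; edgeR adjusted p = 0.000369). PSAE2 had 439, 400 and 428 CPM in wild type and 369, 358 and 403 CPM in the mutant, its groups overlapped, and it was the gene of photosystem I that was not called (log2 change -0.17 ± 0.11; edgeR adjusted p = 0.271). PSAF and PSAN lie on the lumenal side, where plastocyanin docks. PSAF (AT1G31330) had 1951, 2850 and 2906 CPM in wild type and 1226, 684 and 922 CPM in the mutant (log2 change -1.44 ± 0.23; edgeR adjusted p = 0.000934). PSAN fell by 1.66 ± 0.37 on the log2 scale, with mutant values spread from 244 to 650 CPM, and its call was lost without wild type replicate 1, 2 or 3 (edgeR adjusted p = 0.0548, 0.0643 and 0.0509).

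PSAH, PSAL and PSAO lie where mobile antenna trimers dock to photosystem I, and PSAG and PSAK lie beside the antenna belt. PSAH1 had 531, 632 and 639 CPM in wild type and 454, 375 and 438 CPM in the mutant, and PSAH2 had 732, 895 and 934 CPM against 516, 477 and 559 CPM. The groups of both genes were apart, with log2 changes of -0.51 ± 0.13 for PSAH1 and -0.72 ± 0.13 for PSAH2 (edgeR adjusted p = 0.0111 and 0.00187). PSAH1 was not called without wild type replicate 3 (edgeR adjusted p = 0.0596) or mutant replicate 2 (0.0637). PSAG, PSAK, PSAL and PSAO were called lower with log2 changes of -0.75, -0.89, -0.69 and -0.63.

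The extrinsic proteins of photosystem II sit on its lumenal face: PSBO stabilises the manganese cluster that splits water, PSBP and PSBQ help to retain its cofactors, and PSBR is needed for their stable assembly. Of these 6 genes, 4 were called lower. PSBQ2 (AT4G05180) had 1521, 1683 and 1813 CPM in wild type and 812, 654 and 848 CPM in the mutant (log2 change -1.12 ± 0.14; edgeR adjusted p = 0.000177). PSBQ1 had 1097, 1389 and 1373 CPM against 755, 609 and 682 CPM (log2 change -0.91 ± 0.14; edgeR adjusted p = 0.00064). PSBO1, the major PSBO gene, had 3827, 4692 and 4598 CPM against 3405, 2732 and 3081 CPM, a log2 change of -0.51 ± 0.15 (edgeR adjusted p = 0.0236). PSBO2 had 960, 1307 and 1346 CPM in wild type and 1171, 1004 and 1004 CPM in the mutant, with overlapping groups and no call (log2 change -0.18 ± 0.15; edgeR adjusted p = 0.38). PSBP1 fell by 0.71, and PSBR was not called at -0.26 ± 0.14 (edgeR adjusted p = 0.163). Leaving out wild type replicate 1 brought PSBO2 (-0.32; edgeR adjusted p = 0.0389) and PSBR (-0.32; 0.0454) past the threshold, and DESeq2 called PSBR (adjusted p = 0.043). PSBO1 lost its call without wild type replicate 2 (edgeR adjusted p = 0.0897), wild type replicate 3 (0.101), mutant replicate 2 (0.115) or mutant replicate 3 (0.0762).

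PSBW, PSBX and PSBY are small membrane subunits of photosystem II, and PSBS senses lumen acidity in the heat dissipation of excess light. PSBW (AT2G30570) had 1424, 1807 and 1877 CPM in wild type and 949, 723 and 950 CPM in the mutant (log2 change -0.96 ± 0.16; edgeR adjusted p = 0.000914). PSBX had 1657, 1729 and 1746 CPM against 1022, 946 and 1092 CPM (log2 change -0.75 ± 0.13; edgeR adjusted p = 0.00104), and its groups were far apart relative to their spread. PSBY fell by 0.58, a call that was lost once wild type replicate 3 was left out (edgeR adjusted p = 0.0505). PSBS (AT1G44575) had 1296, 1687 and 1673 CPM in wild type and 1577, 1495 and 1381 CPM in the mutant. Its mutant libraries all lay within the wild-type range, and its log2 change of -0.06 ± 0.15, the smallest of the 43, was not called (edgeR adjusted p = 0.759). Between wild type replicates 2 and 3 and mutant replicate 3 alone it was called lower, at -0.29 (0.000442).

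The relative use of paralogous genes was compared by their ratio within each library, which does not depend on scaling between libraries. For 8 pairs or sums, a two-sided exact permutation test over 3 against 3 libraries can give no p below 0.1, and no adjusted p was below 0.133. The ratio of PSAD1 to PSAD2 was 2.83, 2.15 and 2.1 in wild type against 3.44, 5.93 and 4.39 in the mutant, a rise in the mean log2 ratio of 0.93 (exact permutation p = 0.1). The ratio of PSAE1 to PSAE2 went the other way, from 3.3, 4.08 and 3.94 to 2.32, 2.14 and 2.25, a difference of -0.75 on the log2 scale (exact permutation p = 0.1). PSBO1 to PSBO2 had ratios of 3.99, 3.59 and 3.42 in wild type against 2.91, 2.72 and 3.07 in the mutant, a log2 difference of -0.34 (exact permutation p = 0.1). The groups did not overlap in these 3 pairs, so that for PSAD the less abundant paralog had the lower share in the mutant, and for PSAE and PSBO it had the higher share. RBCS1A against the sum of the other RBCS genes had ratios of 0.907, 0.833 and 0.846 in wild type against 1.05, 0.991 and 0.972 in the mutant, a log2 difference of 0.22. The log2 differences of PSAH1 to PSAH2 and LHCB2.1 to LHCB2.2 were 0.21 and 0.17 without overlap. Those of PSBQ1 to PSBQ2 and LHCB4.1 to LHCB4.2 were 0.21 and 0.18 with overlap. Parts of the exons of LHCB2.1, LHCB2.2, RBCS1B, RBCS2B and RBCS3B occur elsewhere in the genome, so the LHCB2 and RBCS ratios are uncertain. PSAE2, PSAH1 and LHCB4.2 overlap a neighbouring gene, so the PSAE, PSAH and LHCB4 ratios are uncertain too.

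**Figure D3:**
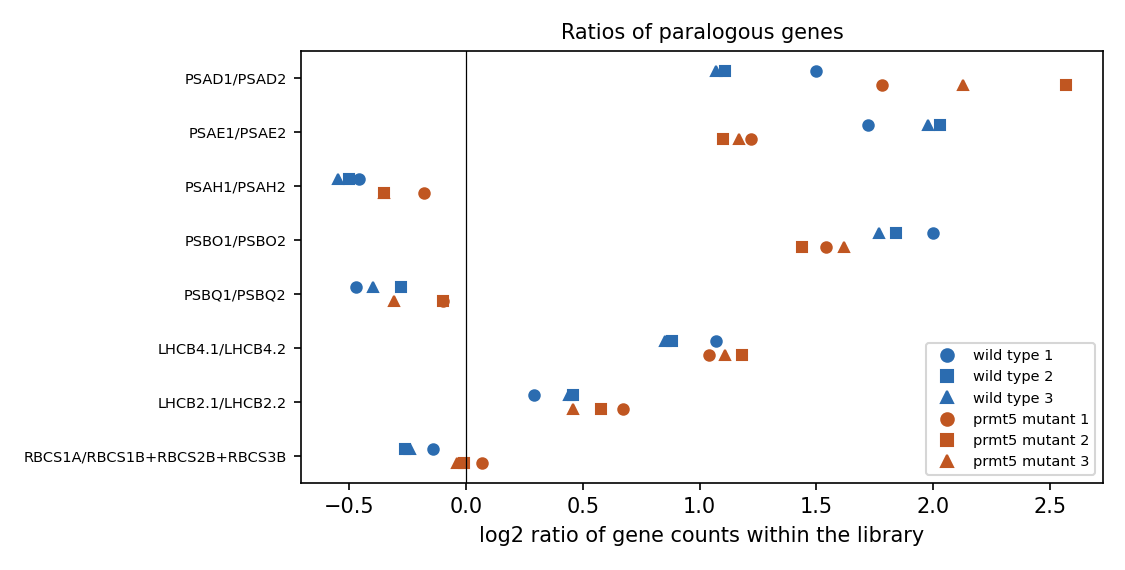
Log2 ratio of the gene counts of each pair of paralogs (horizontal axis), 1 point per library. PSAD1/PSAD2 shifts to the right in the mutant, by 0.93, and PSAE1/PSAE2 and PSBO1/PSBO2 to the left, by 0.75 and 0.34.

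The upstream sequences of these genes share short motifs with light-responsive promoters. Within 250 bases before the annotated start, on either strand, the G-box CACGTG was found in 18 of the 43 genes (41.9%) against 6.77% of 32834 promoters of the same length. The I-box GATAAG was found in 24 (55.8%) against 13.1%, and CCAATC, a sequence of the CCAAT type, in 18 (41.9%) against 11%. The letters of each motif were counted separately, also where copies touch. All 6 extrinsic subunit genes of photosystem II and none of the 7 LHCB1 and LHCB2 genes held a G-box, and all 4 RBCS genes held an I-box. Motifs were present in genes with and without a call: of the 5 genes not called, RBCS1B, PSAE2, PSBO2 and PSBR held at least 1 motif and PSBS none, and 6 of the 38 called genes, namely LHCB1.1, LHCB1.2, LHCB4.3, PSAG, PSAN and PSBX, held none. These are matches of letters and not sites shown to be bound. Shown are LHCB1.4, with the largest fall, PSBQ2, the most significant gene of the oxygen-evolving group, RBCS1A, the most abundant gene, and PSBS, the gene with the smallest change. Sequences were read from the RefSeq genome TAIR10.1, 5′ to 3′ on the strand of the gene, and capitals mark the 3 motifs.
LHCB1.4 promoter, chr2:14524506-14524755, plus strand: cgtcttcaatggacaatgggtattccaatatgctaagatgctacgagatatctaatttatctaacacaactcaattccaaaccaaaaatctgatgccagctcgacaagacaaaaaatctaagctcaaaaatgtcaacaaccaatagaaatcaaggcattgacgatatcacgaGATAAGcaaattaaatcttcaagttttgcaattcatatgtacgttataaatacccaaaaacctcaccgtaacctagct
PSBQ2 promoter, chr4:2673244-2673493, minus strand: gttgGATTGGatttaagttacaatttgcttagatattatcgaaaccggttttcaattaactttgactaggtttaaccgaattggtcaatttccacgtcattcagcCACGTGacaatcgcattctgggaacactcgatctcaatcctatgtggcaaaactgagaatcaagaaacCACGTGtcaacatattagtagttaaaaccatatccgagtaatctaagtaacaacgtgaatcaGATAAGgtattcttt
RBCS1A promoter, chr1:25049425-25049674, minus strand: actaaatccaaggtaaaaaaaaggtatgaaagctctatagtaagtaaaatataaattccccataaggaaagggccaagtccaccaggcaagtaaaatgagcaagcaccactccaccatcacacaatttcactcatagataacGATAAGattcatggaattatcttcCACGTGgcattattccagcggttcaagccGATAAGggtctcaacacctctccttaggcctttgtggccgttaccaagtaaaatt
PSBS promoter, chr1:16871446-16871695, plus strand: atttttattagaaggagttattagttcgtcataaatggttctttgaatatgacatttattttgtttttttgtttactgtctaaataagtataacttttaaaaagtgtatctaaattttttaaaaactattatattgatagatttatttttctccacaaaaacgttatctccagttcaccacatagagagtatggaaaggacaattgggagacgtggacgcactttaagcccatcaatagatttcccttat
The first holds 1 I-box, the next 2 G-boxes, 1 I-box and 1 CCAATC on the opposite strand, the next 1 G-box and 2 I-boxes, and PSBS holds none of the 3.

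The second comparison asked whether introns of these genes were retained more often in the mutant. Intron reads were tested relative to the count of their own gene in the same library, so a change shared by intron and gene reads cancels. The ratio also rises where intron reads fall less than the gene count. Of the 43 genes, 33 had introns in the deposited tables, with 69 intron bins, and all 69 passed the filter. In these, 27 introns in 21 genes were called higher in the mutant and 0 were called lower, which is 39.1% against 26.7% of the 34408 introns tested in all genes (27.9% were called in either direction and 1.21% were called lower). The size of the rise was small: the median log2 change was 0.29 against 0.47 over all introns, and 2 of the 69 (2.9%) reached a log2 change of 1 against 27.9% of all introns. The introns of these genes were read much more deeply, with a median of 564 reads per library against 20.8, and the median SE was 0.15 against 0.42. The 69 introns together held 1.66 ± 0.154 reads per 100 gene reads in wild type and 2.14 ± 0.0785 in the mutant (SD, n = 3 each), against 6.01 ± 0.12 and 8.11 ± 0.458 for all introns tested and their genes.

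How these introns compared with all introns turned round with the reference. Relative to reads spliced over the same intron, which could be tested for 63 introns, 11 (17.5%) were called higher. This was below the 26.4% of all introns called higher with that reference. In PSAF, 1 intron (1.59%) was called lower, against 1.02% of all introns. Relative to library size, 4 of the 69 (5.8%) were called higher, against 32.7% of all introns. With that reference 26 (37.7%) were called lower, against 2.21% of all introns. The median log2 change was -0.48, against 0.61 over all introns. Relative to flanking exon bins, 28 of 68 (41.2%) were called higher against 25.9% of all introns. With coverage along genes as a covariate, 18 of 69 (26.1%) were called higher against 16% of all introns. By role, and relative to the gene count, 8 of 9 introns of the RBCS genes were called higher, with a median log2 change of 0.72, against 3 of 16 introns of photosystem I genes, with a median of 0.07. Relative to spliced reads, 7 RBCS introns could be tested and 3 were called, intron 1 of RBCS1A and introns 1 and 2 of RBCS2B. Introns 1 and 2 of RBCS1B went from 0.72 and 0.81 relative to the gene to 0.28 and 0.27 relative to spliced reads (edgeR adjusted p = 0.162 and 0.242), and intron 3 of RBCS1A from 0.41 to 0.16 (0.329). Intron 2 of RBCS3B, 1 of the 8, had 0 to 2 reads per library spliced over exactly its interval. RBCS1B and RBCS2B share 97.3% of coding bases, and how much their introns share was not measured. The median gene change was -0.72 (range -1.47 to -0.06) in the 21 genes with an intron raised relative to the gene count. It was -1.01 (-1.66 to -0.17) in the 12 genes with introns but none raised. In the 10 genes without an intron, all called lower, it was -0.75 (-1.88 to -0.58). Those 10 are the 5 LHCB1 genes, PSAD1, PSAD2, PSAG, PSBX and PSBY. The ranges overlap and the gene count enters both measures. A relation between intron and gene changes was not tested. Raised introns were also found in 4 genes that were not called, PSBS, PSBR, PSBO2 and RBCS1B.

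The largest rises were in LHCA2 and LHCB5, and the sequences of these introns are given with that of intron 3 of LHCB5, which was not called. Introns are numbered as in the deposited tables, coordinates are those of the tables (TAIR10), and capitals mark the GT and AG ends.
LHCA2 intron 2, chr3:22746301-22746404, plus strand: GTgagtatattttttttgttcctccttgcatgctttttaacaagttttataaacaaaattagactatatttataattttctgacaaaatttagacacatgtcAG
LHCB5 intron 2, chr4:6408558-6408646, plus strand: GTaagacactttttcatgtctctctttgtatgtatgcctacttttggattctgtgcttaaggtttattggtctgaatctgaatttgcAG
LHCB5 intron 3, chr4:6408698-6408795, plus strand: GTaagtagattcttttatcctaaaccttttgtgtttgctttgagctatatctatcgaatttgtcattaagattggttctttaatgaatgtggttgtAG
All of these introns lie in the coding region. The LHCA2 intron is 104 bases long, and the LHCB5 introns are 89 and 98 bases long.

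Intron 2 of LHCA2 had 99, 301 and 134 reads in wild type against 343, 342 and 325 reads in the mutant, while reads spliced over it numbered 7602, 18092 and 9234 against 7109, 7150 and 6061. Per 100 gene reads it held 0.0912, 0.153 and 0.143 reads in wild type against 0.483, 0.504 and 0.481 in the mutant. Each mutant library was thus above each wild-type library by more than the spread within either group, and the log2 change was 1.92 ± 0.18 (edgeR adjusted p = 1.86e-09), or 1.75 relative to spliced reads. The other introns of LHCA2, 1 and 3, had log2 changes of 0.29 and -0.20 and were not called. LHCB5 showed the same mixture within 1 gene. Its intron 2 held 0.112, 0.122 and 0.163 reads per 100 gene reads in wild type against 0.398, 0.424 and 0.476 in the mutant, a log2 change of 1.72 ± 0.17 (edgeR adjusted p = 3.34e-09). Intron 4 rose from 0.682, 0.715 and 0.745 to 1.17, 1.35 and 1.66 (log2 change 0.97 ± 0.14; edgeR adjusted p = 2.19e-06), a call lost relative to library size (0.08; 0.789), and intron 1 by 0.63 ± 0.17 (0.00487). Introns 3 and 5 had log2 changes of 0.40 ± 0.19 (edgeR adjusted p = 0.131) and 0.31 ± 0.13 (0.0704). Intron 1 was not called with coverage along genes as a covariate (0.38; 0.226) or with spliced reads as the reference (0.45; 0.0711), and intron 5 was called in both settings (0.40; 0.0341, and 0.39; 0.0459) and with flanking exon bins as the reference (0.42; 0.000386).

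**Figure D4:**
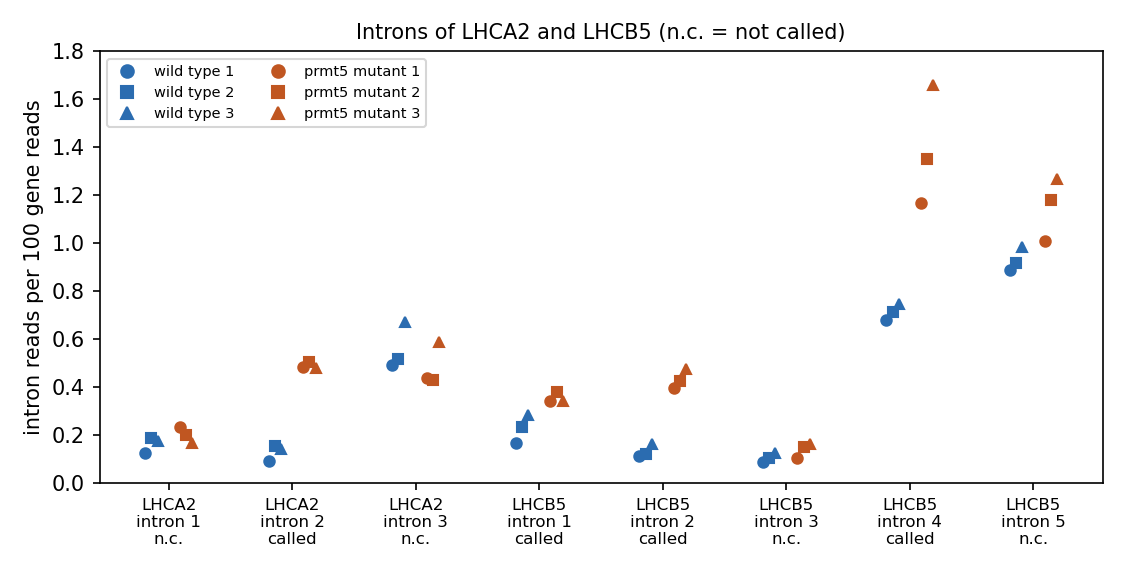
Reads in each tested intron of LHCA2 and LHCB5 per 100 reads counted to the gene (vertical axis), 1 point per library. Intron 2 of LHCA2 and introns 1, 2 and 4 of LHCB5 were called higher in the mutant; the mutant and wild-type libraries overlap for introns 1 and 3 of LHCA2 and intron 3 of LHCB5.

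The 5′ splice sites of the introns were compared with the base frequencies of 121214 annotated introns, by a score that adds up log2 ratios from 3 exonic bases before the junction to 6 intronic bases after it, and that had a median of 7.09. In the LHCA2 intron 2 site, tttGTgagt, the score was 3.40, and in LHCB5 intron 2, agaGTaaga, it was 4.95. LHCB5 intron 3, taaGTaagt, had 7.60, intron 4, aagGTtctt, had 6.80, intron 1, atgGTatgt, had 9.13 and intron 5, ttgGTacat, had 5.51, so the score did not order the introns of LHCB5 by their change. Scores were summarised for introns with a junction recorded over exactly their interval. In these genes the median was 6.79 in 26 raised introns and 7.32 in 40 others, against 6.86 in 31652 introns tested in all genes. LHCA3 intron 1 (raised, 3.23) and LHCB4.3 intron 2 (2.50) had no such junction and were left out. PSBP1 intron 2 (-0.98), with 0 to 1 spliced reads per library, was kept. The next largest rises were in LHCA1, PSBO2 and PSBQ1. Intron 5 of LHCA1 (chr3:20340229-20340315, minus strand) went from 0.145, 0.185 and 0.16 to 0.339, 0.258 and 0.358 reads per 100 gene reads, a log2 change of 0.95 ± 0.18 (edgeR adjusted p = 0.000115). Relative to library size this LHCA1 intron lost its call (0.34; 0.302). Intron 1 of PSBO2 (chr3:18891470-18891567, minus strand) went from 0.379, 0.515 and 0.469 to 0.651, 0.9 and 1.07, a log2 change of 0.93 ± 0.18 (edgeR adjusted p = 0.000183). Intron 1 of PSBQ1 (chr4:11334723-11335091, plus strand) went from 0.699, 0.894 and 0.806 to 1.38, 1.29 and 1.75, a log2 change of 0.88 ± 0.16 (edgeR adjusted p = 8.12e-05). Only 1 to 6 reads per library were spliced over exactly this PSBQ1 interval, so its rise is not a measure of retention against splicing. The 5 annotated retained introns, in LHCA1, LHCA3, LHCB4.2 and PSBS, were not called, with log2 changes from -0.17 to 0.28.

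Few junction reads of these genes lay outside annotated introns. Such reads made up 0.0203% ± 0.00293 of junction reads in wild type and 0.0173% ± 0.000824 in the mutant (SD, n = 3 each), against 0.784% ± 0.0164 and 0.867% ± 0.0424 over all genes. In LHCA2, LHCB4.3, RBCS3B, PSAN and PSAO, 10 junctions in 5 clusters that share an end could be tested. None of the 10 was called by diffSpliceDGE of edgeR, against 5.11% of 4857 junctions tested (2.74% higher and 2.37% lower), and 1 had an unadjusted p under 0.05. That junction used an acceptor 11 bases before the annotated end of LHCA2 intron 2. It took 26, 82 and 34 reads in wild type against 9, 14 and 12 in the mutant, which was 0.386% ± 0.0577 and 0.173% ± 0.0405 of the cluster (log2 change -1.20 ± 0.38; edgeR adjusted p = 0.0668). It was called with the cluster total as the reference (edgeR adjusted p = 0.0125). With the read minimum lowered to 5, an unannotated junction of PSBP1 (chr1:2048654-2048925) was called, with 0, 7 and 4 reads in wild type against 19, 8 and 13 in the mutant (0.0144).

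Other photosynthesis genes were read from the same test, in which 15.9% of all tested genes were called lower and 18.6% higher. Of 4 further light-harvesting genes, 2 were called lower: LHCB2.3, from 588, 1211 and 1256 to 388, 210 and 304 CPM (log2 change -1.76 ± 0.35; edgeR adjusted p = 0.00982), and LHCA5, at -0.37 ± 0.11 (0.0185), whose call was lost without wild type replicate 2 (0.0533), wild type replicate 3 (0.0989), mutant replicate 2 (0.0764) or mutant replicate 3 (0.0612). Of 12 genes of electron carriers and the ATP synthase, 8 (66.7%) were called lower and 1 higher, with a median log2 change of -0.38. FD2, the main leaf ferredoxin, had 1460, 1989 and 2042 CPM in wild type and 809, 342 and 500 CPM in the mutant (log2 change -1.73 ± 0.31; edgeR adjusted p = 0.00426), and FD1 fell by 0.71 (0.00229). FNR2, a ferredoxin-NADP reductase, was called higher, from 874, 817 and 865 to 1405, 1395 and 1318 CPM (log2 change 0.69 ± 0.12; edgeR adjusted p = 0.00131). The number called lower in this list was 3 without mutant replicate 2, 4 without wild type replicate 2 or 3, and 5 without mutant replicate 1 or 3.

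Of 15 other Calvin cycle genes, regulatory ones included, 2 (13.3%) were called lower, near the 15.9% of all tested genes. Of the 15, 1 was called higher and 12 were not called. Their log2 changes ranged from -1.37 to 0.61, with a median of -0.09, a range that holds that of the RBCS genes, and the lists were not tested against each other. RPE, the epimerase that regenerates ribulose phosphate, had 629, 839 and 831 CPM in wild type and 398, 207 and 284 CPM in the mutant (log2 change -1.37 ± 0.23; edgeR adjusted p = 0.00158), and PDTPI, the plastid triose phosphate isomerase, fell by 0.61 (0.00182). TKL1, a transketolase, rose from 1976, 2172 and 2073 to 3280, 3339 and 2906 CPM (log2 change 0.61 ± 0.14; edgeR adjusted p = 0.00501) but was not called with coverage along genes as a covariate (0.47; 0.0917). Without wild type replicate 1, 5 of the 15 were called lower. Of 14 genes of chlorophyll synthesis, 4 (28.6%) were called lower and 2 higher, against 15.9% and 18.6% of all tested genes. Their log2 changes ranged from -2.07 to 0.39, with a median of -0.31. The largest fall, that of HEMA1 (-2.07 ± 0.84), was not called (edgeR adjusted p = 0.135), although its groups did not overlap. CHLH, at -1.24 ± 0.46, was not called either (0.0892). Of the genes called lower, CRD1 (-0.58) and CAO (-0.56) had overlapping groups. GUN4, an activator of magnesium chelatase, fell by 0.87 ± 0.15 (edgeR adjusted p = 0.0011) and CHLM, the methyltransferase after chelation, by 0.47 ± 0.12 (0.0114), a call lost without wild type replicate 3 (0.0623) or mutant replicate 2 (0.0602). The rises of CHLI2 and PORC, by 0.39 and 0.33, were not called in 7 of the 14 other settings each, and with upper-quartile scaling neither gene was called (edgeR adjusted p = 0.0762 and 0.0896). In this list 1 gene was called lower without wild type replicate 3 or mutant replicate 2, and 2 without wild type replicate 2 or mutant replicate 3; the 2 higher calls became 0 without wild type replicate 2 or 3 or mutant replicate 1 or 2, and 1 without mutant replicate 3.

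GLK1 and GLK2 are transcription factors that activate antenna and chlorophyll synthesis genes. GLK1 had 203, 277 and 272 CPM in wild type and 91.4, 160 and 160 CPM in the mutant (log2 change -0.87 ± 0.22; edgeR adjusted p = 0.0176). GLK2 had 95.6, 114 and 113 CPM against 79.8, 70.9 and 75.1 CPM (log2 change -0.51 ± 0.10; edgeR adjusted p = 0.00309). The groups did not overlap for either gene, and mutant replicate 1, the lowest for GLK1, was the highest for GLK2. GLK1 was not called without wild type replicate 2 (edgeR adjusted p = 0.0723), wild type replicate 3 (0.059) or with coverage as a covariate (0.159).

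**Figure D5:**
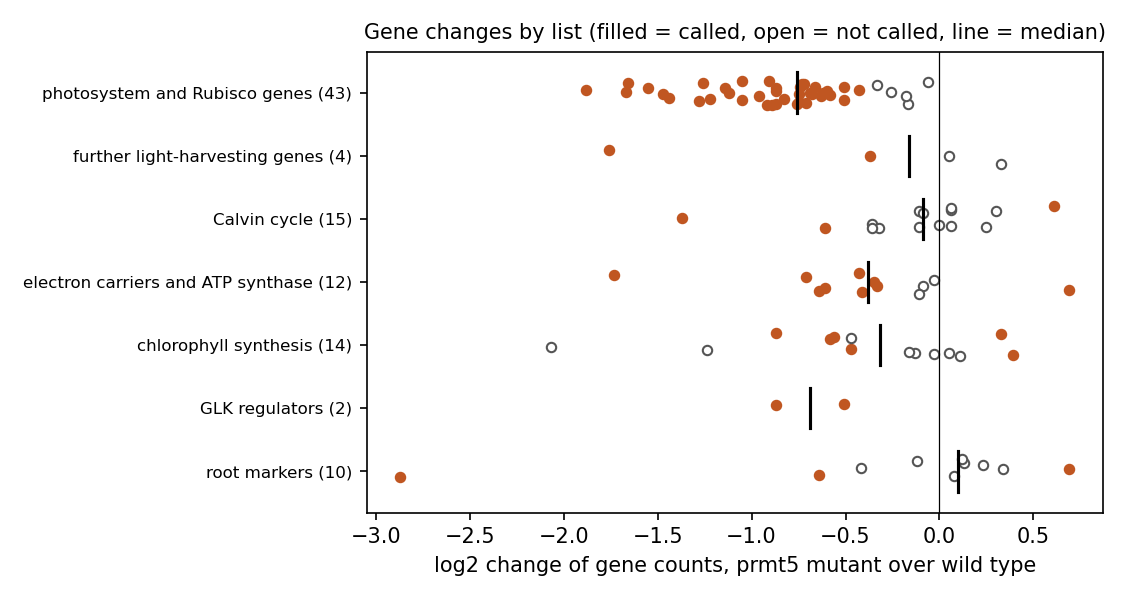
Log2 change of gene counts, prmt5 mutant over wild type (horizontal axis), for each gene of the photosystem and Rubisco list and of 6 further lists, 1 point per gene, with the list median as a line. All 43 points of the first list lie below 0 with a median of -0.76, while the Calvin cycle list has a median of -0.09 and genes on both sides of 0.

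Genes of like length or level gave the following background, chosen after the values were seen. Of 9571 other genes tested with an exonic length of 607 to 1525 bases, the range of these 43, 19.6% were called lower, with a median log2 change of -0.10. Of 354 other genes at 300 CPM or more, 23.7% were called lower, with a median of -0.15. Whole plants contain roots, and the summed level of 10 root marker genes was 985, 1526 and 1374 CPM in wild type and 1012, 941 and 1013 CPM in the mutant; without PYK10 it was 97.9, 119 and 121 CPM against 114, 105 and 89.8 CPM. Of these markers, SHR and NRT2.1 (20%) were called lower and MYB36 was called higher, against 15.9% and 18.6% of all tested genes. The other 7 were not called, and 0 of the 10 had a library at 0. The summed marker level overlapped between the groups, and the part of organ composition in the decrease was not tested.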

How the data were processed

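Gene, exon bin, intron bin and junction tables hold whole-number counts per library as deposited, without normalization, per the file headers and the values. STAR and TAIR10 are named in the submitters' processing notes; no source used here names the counting program. The 43 genes and the other lists were chosen with earlier results of these data known. Libraries were grouped by title. Genes were tested with edgeR 4.0.16 (R 4.3.3; quasi-likelihood F-test, robust, TMM, default expression filter, Benjamini-Hochberg adjusted p under 0.05) over the whole table. Introns with 10 or more reads in 3 or more libraries, in genes averaging at least 20 counts, were tested with the log of the gene count plus 1 as offset; introns overlapping another bin were not used. Junctions sharing a start or an end were tested with diffSpliceDGE, whose log2 change is relative to the cluster. Standard errors are the coefficient's size over the root of F. Genome and annotation were RefSeq TAIR10.1; 98.6% of 122900 deposited nuclear introns have GT and AG ends there. Values per library are given, for each role group, for the 2 genes with the smallest p, the gene with the largest change and all paralog pairs. Introns named are the 5 called ones with the largest rise, at most 1 per gene, averaging 20 reads or more. Further introns of LHCA2 and LHCB5 and the junctions of LHCA2 and PSBP1 were chosen after their values were seen. From other lists, up to 2 called genes per direction, and GLK1 and GLK2, are named. HEMA1, CHLH, CRD1 and CAO were added after their values were seen. On simulated counts, 22.4%, 98.5% and 100% of genes changed by 0.5, 1 and 2 on the log2 scale were recovered among 21943 genes. The shares were 0%, 13.4% and 80.3% of introns among 34408 and 0%, 5.97% and 56.1% of junctions among 4857. Of each kind, 67, 67 and 66 were changed at these sizes, with a spread between libraries that was set and not estimated. In the data, far larger shares were called, 34.5% of genes and 27.9% of introns, so recovery there can differ. Changed introns were drawn from all tested introns, with a median of 20.8 reads per library. The introns of the 43 genes had 564, so that recovery does not describe them. Alternatives were other scalings, DESeq2 1.42.0, no or other filters, other references for introns and junctions, exon bins for paralogs, a replicate block, a coverage covariate and leaving out each library; the setting with wild type replicates 2 and 3 and mutant replicate 3 only was added after seeing the data.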

Additional observations from a re-analysis of the deposited data

How the results depend on the processing

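The number of the 43 genes called lower, 38, was 29 (without wild type replicate 3) to 40 when single libraries were left out. It was 32 to 40 in the other settings with more than 1 mutant library. In any setting 0 were called higher, and 26 of the 43 were called lower in all 15 settings. Upper-quartile scaling moved the median of all genes from -0.02 to -0.11 and that of the 43 to -0.85. The number of introns called higher, 27, was 20 to 26 without single libraries, 18 with the coverage covariate, 4 with library size as the reference and 11 with spliced reads as the reference. Introns called lower numbered 26 with library size, 1 with spliced reads, 2 with flanking exon bins, 1 with the coverage covariate, 1 in the 3-library setting, and 0 to 1 without single libraries. With library size as the reference, which lets the fall of the gene in, the sign differed for 41 of the 69, among the named introns PSBQ1 intron 1 (-0.04) and LHCB5 introns 1 (-0.28), 3 (-0.51) and 5 (-0.57), and the calls of LHCB5 intron 4 (0.08) and LHCA1 intron 5 (0.34) were lost. Junction calls were 1 with the cluster total as reference, 1 with a minimum of 5 reads, and 0 to 0 without single libraries.

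Genes called lower became, for the further light-harvesting list, 1 with the replicate block and 1 to 2 without single libraries, with 1 called higher without a filter. For the Calvin cycle they became 4 with upper-quartile factors, 4 with DESeq2, 8 in the 3-library setting and 2 to 5 without single libraries, and genes called higher became 2 with DESeq2, 0 with the covariate and 2 in the 3-library setting. For electron carriers they became 5 with the covariate and 3 to 8 without single libraries. For chlorophyll synthesis they became 2 with the replicate block, 8 in the 3-library setting and 1 to 5 without single libraries, and genes called higher became 0 with upper-quartile factors, 0 with the covariate and 0 to 2 without single libraries. GLK calls became 1 with the covariate and 1 to 2 without single libraries. The cause of these changes was not tested. No paralog difference changed direction. PSAD has no exon bins, so its ratio has no value from them, and LHCB2 none from 3′ bins.

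Replicate numbers are shared in the labels but same-numbered libraries did not deviate together (r = -0.131, -0.0421 and 0.0011 for pairs 1, 2 and 3), and no library correlated best with its own number. With the number as a replicate block, 34 of the 43 genes were called lower, without LHCA1, LHCB2.1, RBCS1A and PSBO1 (edgeR adjusted p = 0.052, 0.0718, 0.161 and 0.0747), 26 introns were called higher, 0 junctions were called, LHCB2.3 was not called (0.0538), and paralog differences were as without it (exact permutation p = 0.25 to 0.5). Errors cover the spread between 3 libraries per group. Among 4857 simulated junctions, 56.1% of those given a log2 change of 2 were found again. Those junctions were drawn from the clusters of all genes, so that recovery does not describe the junctions of the 43 genes. Changes of junction use could be missed in these genes, and from what size was not measured.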
